A study of Mus musculus with 9 samples.

Results

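A set of 77 mouse genes had almost no transcripts in bone marrow neutrophils kept alone and clear levels in neutrophils recovered from culture with either of a pair of tumour cell types, PyMT-N and PyMT-M. Members were chosen by measured values, in CPM, the counts of a gene scaled to the total of its library. Protein-coding genes were kept where the mean was under 1 CPM alone, at least 20 CPM in both co-cultures, and within 4-fold between them. Symbols starting with Col, Itg, Lam, Tead, Krt or Serpin, and Aebp1, Sparc, Egfr, Amotl2 and Bcat1, were set aside. The table held 54532 gene identifiers, 21995 of them protein-coding. Of 11638 protein-coding genes under 1 CPM alone, 287 reached 20 CPM with PyMT-N cells, 226 with PyMT-M cells and 103 with both. Of those 103, 84 lay within 4-fold, and the symbol rule removed 7.

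The study sequenced RNA of neutrophils from wild type mouse bone marrow, held in 0.5% fetal bovine serum for 12 h. Neutrophils stayed alone or were cultured with tumour cells of either kind, PyMT-N or PyMT-M, and there were 3 libraries per group, labelled as biological replicates. Nothing says that these came from separate animals or cultures, so p-values measure only the spread between these libraries. PyMT is the polyoma virus middle T antigen, an oncogene used to drive mouse mammary tumours. What N and M stand for, the animals' age, and any promoter or clone behind the tumour cells were not stated in the labels. Co-cultured neutrophils were sorted before RNA was made, and the labels do not say so for neutrophils alone. The labels also name DMEM as the medium of the co-cultures and no medium for neutrophils alone. Co-culture thus cannot be told apart from sorting or from any difference in medium. No library of tumour cells by themselves was used here. A transcript made in neutrophils and a transcript of a tumour cell that came through the sort therefore cannot be told apart, and in bulk RNA neither can fewer cells of a type and less RNA per cell.

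Several of the members are known from cells that attach and spread. Integrins tie such cells to matrix through adaptors such as kindlins, parvins and p130Cas, and caveolae are small membrane pits coated by caveolins and cavins. Junction scaffolds and polarity proteins hold neighbouring cells together, and the Hippo pathway reads cell contact and tension and restrains the coactivators YAP and TAZ, which work with TEAD factors on DNA. Circulating leukocytes build much of the same machinery from paralogues restricted to blood cells, such as Fermt3 in place of Fermt2.

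Libraries held 1641049 to 4524563 counts, so 1 CPM stood for 1.64 to 4.52 counts. Neutrophil markers made up 29702 to 42742 CPM alone, 18928 to 22877 with PyMT-N and 21012 to 25756 with PyMT-M cells. Of the 20 markers, 19 were at 20 CPM or more alone, 17 with PyMT-N and 18 with PyMT-M cells, and Mpo and Elane were at 0 with PyMT-N cells. Monocyte and macrophage markers summed to 22243 to 24456 CPM alone, 3677 to 4686 with PyMT-N and 8347 to 10661 with PyMT-M cells. Most of each sum was 1 gene, Lyz2, at means of 22030, 3240 and 9050 CPM. Of the 14 markers, 7 were at 20 CPM or more alone, 6 with PyMT-N and 7 with PyMT-M cells. Epithelial markers summed to 23.2 to 39.9 CPM alone, 2585 to 3646 with PyMT-N and 99.1 to 129 with PyMT-M cells. Of the 24 epithelial genes, 15 were at 20 CPM or more with PyMT-N and 2 with PyMT-M cells, where Esrp1, Cldn3, Cldn4, Krt14, Ehf and Krt5 were at 0. Mesenchymal markers summed to 1246 to 1386 CPM alone, 2398 to 2908 with PyMT-N and 4409 to 5577 with PyMT-M cells. Without vimentin, Vim, the other 23 summed to 175 to 194 CPM alone, 1910.1 to 2428 with PyMT-N and 1762 to 2026 with PyMT-M cells, so the co-cultures overlapped. Of those 24 genes, one of which, Cav1, is a member, 8 reached 20 CPM with PyMT-N and 12 with PyMT-M cells. Alone replicate 3 was the shallowest library and had a count for 9 members, against 35 in each of the other 2.

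Summed over all 77 members, the level was 29.6, 27.0 and 8.53 CPM in the alone libraries, 4348, 5789 and 5368 with PyMT-N cells and 4681, 5091 and 4702 with PyMT-M cells. Every co-culture library was above every alone library, and the co-cultures overlapped. The members took 0.435% to 0.579% of all counts with PyMT-N and 0.468% to 0.509% with PyMT-M cells. All 77 had a count in each of the 6 co-culture libraries. The lowest value of any member there was 12.5 CPM, and the highest in an alone library was 2.59 CPM. Over the 3 alone libraries together, 25 members had no count, 31 had 1 to 3 counts and 21 had 4 to 8. Within PyMT-N co-culture the member sum rose and fell across libraries in the same order as the epithelial markers and in the reverse order of the neutrophil markers, with replicate 1 lowest in members and highest in neutrophil markers. The mesenchymal markers took another order there, at 2398, 2723 and 2908 CPM. Among PyMT-M libraries replicate 2 was highest for members, epithelial and mesenchymal markers. Neutrophil markers there, at 25756, 21509 and 21012 CPM, did not take the reverse of the member order, although replicate 1 was again highest. The part of those markers in the levels was not tested.

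**Figure D1:**
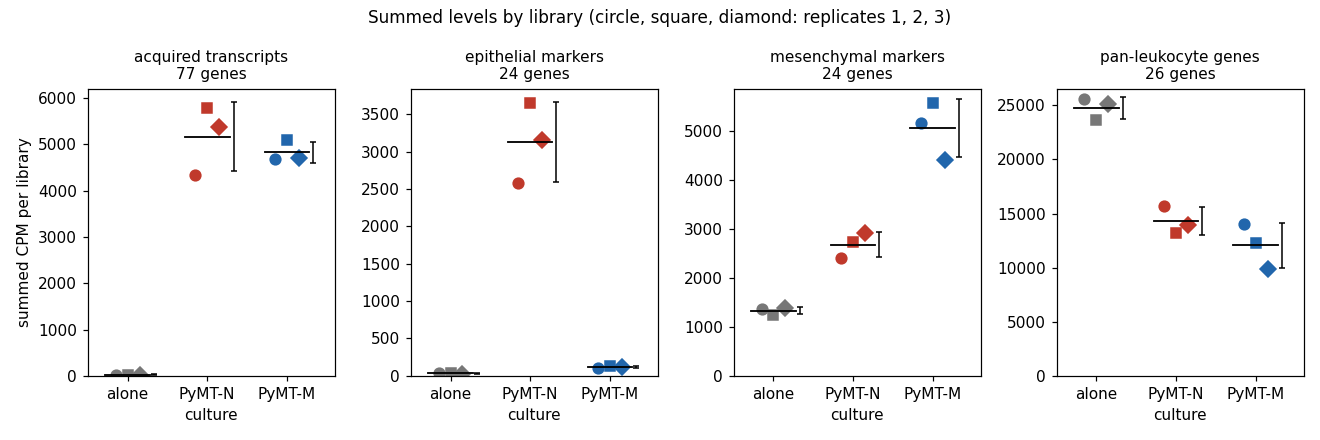
Summed CPM per library (vertical axis, linear from 0) of the 77 members, 24 epithelial markers, 24 mesenchymal markers and 26 pan-leukocyte genes in neutrophils alone, with PyMT-N and with PyMT-M cells. Points are libraries, horizontal lines means and bars SD (n = 3). The members lie at similar heights in both co-cultures, 4348 to 5789 and 4681 to 5091 CPM, whereas epithelial markers are high in PyMT-N co-culture, and the mesenchymal sum is higher in PyMT-M co-culture through Vim, at a mean of 3188 against 500.3 CPM.

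By the quasi-likelihood test of edgeR with adjusted p under 0.05 over 12012 genes, 77 of 77 members were higher with PyMT-N cells than alone, beside 29.4% of all genes tested, and none was lower, beside 23.6%. With PyMT-M cells 77 of 77 were higher, beside 28.2%, and none lower, beside 27.9%. Nothing is read from these counts, since the same values chose the members, and both comparisons share the alone libraries. The median log2 difference of the members was 7.69 with PyMT-N and 7.51 with PyMT-M cells, where all tested genes had medians of 0.12 and -0.03. Fitted values of genes at 0 alone depend on the prior count. Measured over pooled counts, members at 0 alone were at least 49.6 to 245-fold higher with PyMT-M cells, with a pooled floor of 3 counts in the alone group.

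**Figure D2:**
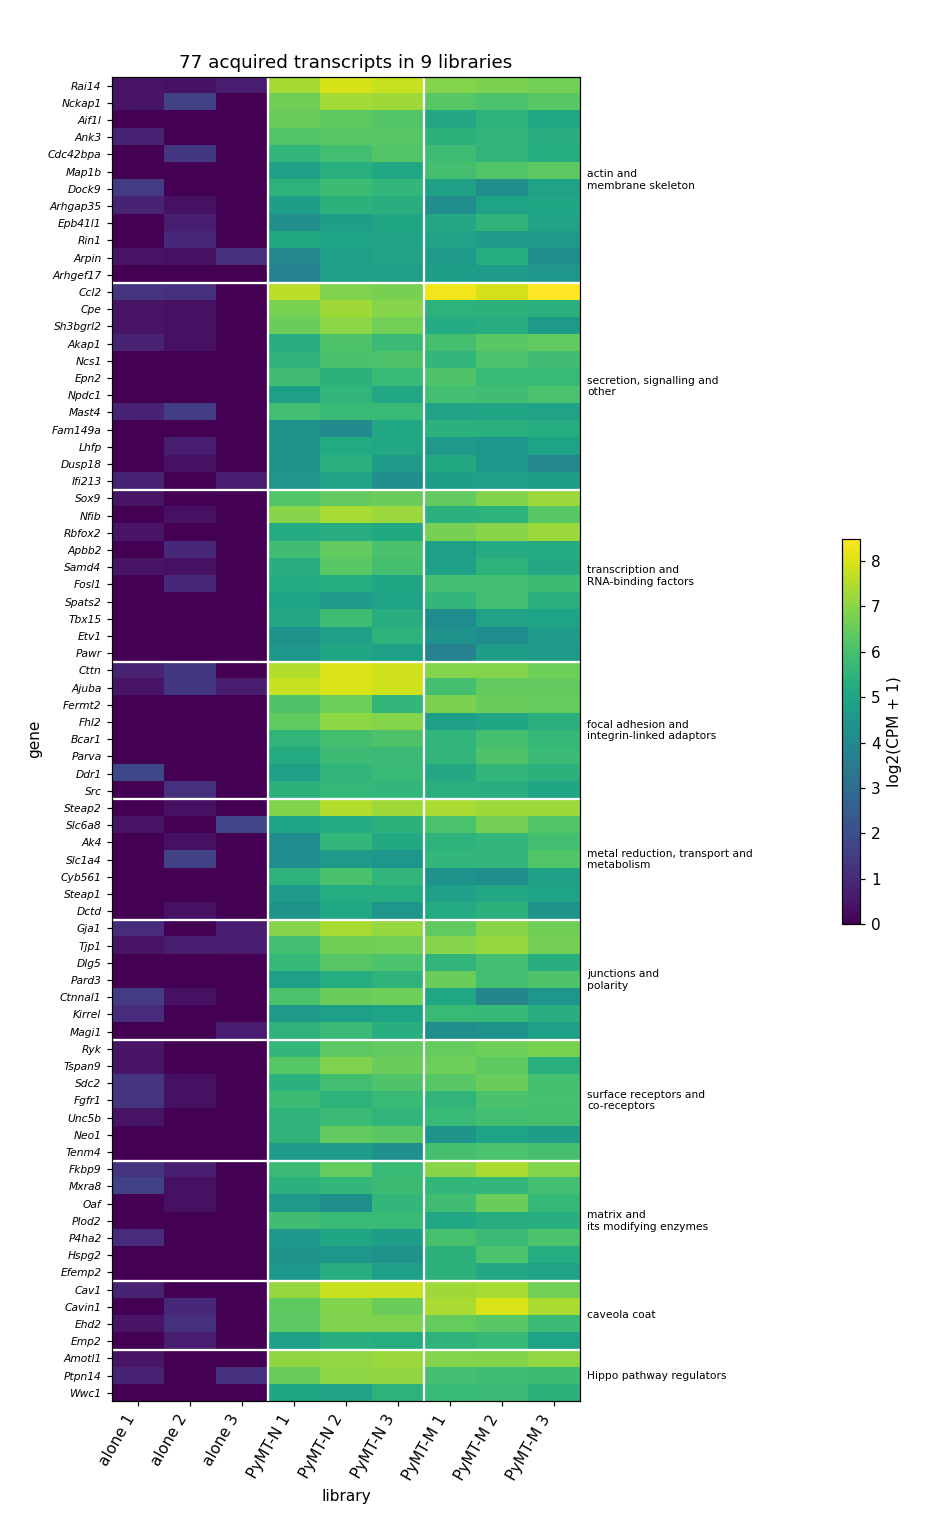
Levels of all 77 members (rows, grouped by role) in the 9 libraries (columns), as colour on a log2(CPM + 1) scale. The 3 alone columns hold no value over 2.59 CPM (dark), and the 6 co-culture columns none under 12.5 CPM (green to yellow).

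Focal adhesion and integrin-linked adaptors made up 8 members. Ajuba, a LIM-domain scaffold at adhesions and junctions (chr14:54567472-54577558, GRCm38), had 216, 254 and 236 CPM with PyMT-N cells, 61.9, 86.8 and 86.9 with PyMT-M cells and 0.371, 1.57 and 0.609 alone. Cortactin, Cttn, which stabilises branched actin, had 182, 264 and 236 CPM with PyMT-N cells, 119, 120.5 and 97.0 with PyMT-M cells and 0.741, 1.57 and 0 alone. Fhl2, another LIM-domain protein, had 85.0, 133 and 119.8 CPM with PyMT-N cells, 26.5, 31.8 and 41.3 with PyMT-M cells and no count in any library alone. For all 3 genes every PyMT-N library was above every PyMT-M library, and the means stood at 235 ± 19.2 CPM with PyMT-N and 78.5 ± 14.4 with PyMT-M cells for Ajuba (SD, n = 3). Of all 12012 tested genes, 20.9% had every PyMT-N library above every PyMT-M library, and 33.9% the reverse. These shares stand beside every such statement below. The fitted log2 difference between the co-cultures was 1.80 ± 0.19 (SE) for Ajuba, 1.23 ± 0.21 for Cttn and 1.98 ± 0.26 for Fhl2. Against a floor of 3 counts, Fhl2 was at least 283-fold higher with PyMT-N and at least 81.8-fold higher with PyMT-M cells than alone.

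Fermt2, Parva and Bcar1, of the same group, overlapped between the co-cultures. Fermt2, the broadly expressed kindlin that activates integrins, had 69.5, 96.4 and 48.0 CPM with PyMT-N cells, 111, 93.6 and 87.5 with PyMT-M cells and no count in any library alone. Parva, the parvin that binds integrin-linked kinase, had 36.6, 55.6 and 54.4 CPM with PyMT-N cells, 46.7, 69.9 and 53.5 with PyMT-M cells and no count in any library alone. Bcar1, the docking protein p130Cas, had 45.9, 62.1 and 68.5 CPM with PyMT-N cells, 47.2, 61.8 and 49.6 with PyMT-M cells and no count in any library alone. None of the 3 had a count alone, and for each of them PyMT-N and PyMT-M libraries overlapped. Src, the kinase that phosphorylates Bcar1, lay at 46.9 and 36.8 CPM on average with PyMT-N and PyMT-M cells, and the collagen receptor kinase Ddr1 at 42.7 and 41.6. For Src every PyMT-N library was above every PyMT-M library, and Ddr1 overlapped. Of 24 other tested genes on a list of focal adhesion adaptors and kinases, 12 rose and 7 fell with PyMT-N cells, and 10 rose and 8 fell with PyMT-M cells. Scaled to pan-leukocyte genes, 15 were higher and 1 lower with PyMT-N, and 15 and 0 with PyMT-M cells. For this and every list below, the shares of all tested genes are 29.4% higher and 23.6% lower with PyMT-N, and 28.2% and 27.9% with PyMT-M cells. Scaled to pan-leukocyte genes 56.9% of all genes were higher with PyMT-N and 64.9% with PyMT-M cells. Focal adhesion kinase, Ptk2, picked from that list after its values were seen, missed the alone limit only, with 89.5, 127 and 110.5 CPM with PyMT-N cells, 111, 129.8 and 105 with PyMT-M cells and 1.85, 2.20 and 1.83 alone.

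The caveola group held 4 members, among them a caveolin, a cavin and the neck ATPase. Caveolin, Cav1, the membrane scaffold of the pit, had 142, 216 and 221 CPM with PyMT-N cells, 156, 164 and 101 with PyMT-M cells and 0.741, 0 and 0 alone. Cavin1, the soluble coat protein that caveolae need to form, had 82.5, 118 and 94.2 CPM with PyMT-N cells, 169, 258 and 173 with PyMT-M cells and 0, 0.943 and 0 alone. The ATPase Ehd2, which sits at the caveolar neck, had 80.5, 113 and 114 CPM with PyMT-N cells, 89.2, 78.0 and 53.8 with PyMT-M cells and 0.371, 1.26 and 0 alone. Cavin1 was higher in every PyMT-M library than in any PyMT-N library, whereas Cav1 and Ehd2 overlapped. Mean Cav1 was 56.0 CPM per kb of exon with PyMT-N and 40.7 with PyMT-M cells, and mean Cavin1 was 27.4 and 55.7. Emp2, a tetraspan membrane protein, averaged 35.1 and 41.3 CPM. Among the 6 other tested caveola genes, 4 rose and none fell with PyMT-N cells, and 3 rose and 1 fell with PyMT-M cells. With pan-leukocyte scaling these became 6 and 0, and 4 and 0. Those named next were picked after their values were seen. Cav2, the partner of Cav1, had 129, 162 and 127 CPM with PyMT-N cells, 84.4, 87.3 and 83.2 with PyMT-M cells and 1.48, 0.314 and 7.31 alone. Cavin2 was higher with PyMT-N cells, at 82.8, 102 and 94.2 CPM with PyMT-N cells, 0.250, 3.25 and 0.306 with PyMT-M cells and 0.370, 6.29 and 0 alone, and Cavin3 was higher with PyMT-M cells, at 5.07, 3.99 and 7.51 CPM with PyMT-N cells, 31.7, 38.1 and 31.2 with PyMT-M cells and 0, 0 and 0 alone. The edgeR log2 difference between the co-cultures was 6.26 (adjusted p = 2.37e-07) for Cavin2 and -2.36 (adjusted p = 0.000111) for Cavin3.

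Hippo pathway regulators gave 3 members, all of which act on YAP or its upstream kinases. Amotl1, an angiomotin that binds YAP, had 135, 138 and 147 CPM with PyMT-N cells, 119, 117 and 137 with PyMT-M cells and 0.371, 0 and 0 alone. It overlapped between the co-cultures, and its coefficient of variation with PyMT-N cells, 4.38%, was the smallest of the 77 there. Ptpn14, a phosphatase that holds YAP in the cytoplasm (chr1:189728268-189876695), had 90.1, 130.3 and 133 CPM with PyMT-N cells, 61.2, 57.3 and 55.4 with PyMT-M cells and 0.741, 0 and 1.22 alone. Wwc1, the upstream regulator also named KIBRA, had 31.0, 28.8 and 43.5 CPM with PyMT-N cells, 51.4, 54.3 and 42.8 with PyMT-M cells and no count in any library alone. Ptpn14 was higher in every PyMT-N library, and the other 2 overlapped. Tead1 and Tead4, DNA-binding partners of YAP, and the angiomotin Amotl2 met the same limits on values and were set aside by symbol, with Tead1 at a mean of 118 CPM with PyMT-N and 82.8 with PyMT-M cells.

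A list of YAP and SRF target genes also holds regulators, such as Yap1, Wwtr1, Lats1 and Srf, so its counts are not counts of targets. Of its 33 other tested genes, 22 rose and 4 fell with PyMT-N cells, and 16 rose and 6 fell with PyMT-M cells. Scaled to pan-leukocyte genes, these became 27 and 1, and 25 and 0. Those named here were picked after their values were seen. TAZ, Wwtr1, overlapped between the co-cultures, with 55.5, 116 and 132 CPM with PyMT-N cells, 102, 105 and 86.3 with PyMT-M cells and 2.96, 2.20 and 1.83 alone. Yap1 had 51.8, 88.9 and 81.5 CPM with PyMT-N cells, 1184, 1554 and 1546 with PyMT-M cells and 1.85, 0 and 1.22 alone, and its classical target Ccn2 had 127, 155 and 156 CPM with PyMT-N cells, 0.250, 3.95 and 1.22 with PyMT-M cells and 0, 0.314 and 0 alone. Yap1 was thus lower in PyMT-N than in PyMT-M co-culture, by an edgeR log2 difference of -4.06 (adjusted p = 1.05e-09), and Ccn2 was higher, by 6.46 (adjusted p = 1.59e-08).

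RefSeq promoter windows of GRCm38.p6, from 250 bases before a gene's start, matched 60 of the 77 members. That is 77.9%, under the 80% needed for a set, so motif and GC shares over the members are void and not given. In 10 members the part before the start held a match, the TEAD core GGAATG in 9 and the AP-1 site TGANTCA in 1. A stretch of 100 bases is shown for 4 of these, Ajuba, Ptpn14, Tenm4 and Gja1, which the naming rule takes and whose stretch lies outside the member's own GENCODE gene. The others were Arpin, Cavin1, Etv1, Ifi213, Rai14 and Rin1. These motifs were searched because TEAD factors and the AP-1 member Fosl1 appear with them in both co-cultures. Both strands were searched, capitals mark the matches, and CATTCC is the TEAD core on the other strand. Of all 17492 windows 11.6% held the TEAD core and 6.18% the AP-1 site, and no excess among the members is read from their counts. A match is a description of letters and not a binding site.
Ajuba, chr14:54577784-54577883, minus strand: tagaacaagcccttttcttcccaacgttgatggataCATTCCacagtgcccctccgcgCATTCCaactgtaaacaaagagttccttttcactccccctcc
Ptpn14, chr1:189728075-189728174, plus strand: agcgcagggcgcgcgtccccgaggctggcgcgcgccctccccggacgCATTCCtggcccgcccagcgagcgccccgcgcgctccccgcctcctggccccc
Tenm4, chr7:96171085-96171184, plus strand: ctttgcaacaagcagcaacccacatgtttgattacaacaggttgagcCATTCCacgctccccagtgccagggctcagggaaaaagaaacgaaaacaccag
Gja1, chr10:56377200-56377299, plus strand: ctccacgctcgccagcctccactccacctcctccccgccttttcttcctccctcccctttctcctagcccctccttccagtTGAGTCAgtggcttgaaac
The Ajuba stretch holds 2 TEAD cores, 186 and 164 bases before the RefSeq start of the window, from which all distances here are counted and which can differ from the GENCODE gene end given for a member. Ptpn14 and Tenm4 each hold 1, at 146 and 112 bases, and the AP-1 match of Gja1 is 19 bases before its RefSeq start. No matching window was found in the table for Ank3, Arhgef17, Ccl2, Cpe, Cttn, Cyb561, Fgfr1, Fosl1, Nckap1, Nfib, Parva, Plod2, Rbfox2, Sdc2, Slc6a8, Sox9 and Tbx15.

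Junction and polarity genes gave 7 members. The gap junction connexin Gja1, whose promoter stretch is printed above, had 121, 164 and 142 CPM with PyMT-N cells, 84.4, 125 and 99.1 with PyMT-M cells and 1.11, 0 and 0.609 alone. Tjp1, the scaffold of tight junctions, had 59.7, 100.3 and 102 CPM with PyMT-N cells, 121, 139 and 105 with PyMT-M cells and 0.371, 0.629 and 0.609 alone. Every PyMT-M library was above every PyMT-N library for Tjp1, and Gja1 overlapped by a single PyMT-M library. The polarity regulator Pard3 was higher with PyMT-M cells, at 95.1, 60.1 and 70.0 CPM against 27.6, 37.3 and 45.3. The scaffold Magi1 was higher with PyMT-N cells, at 45.3, 54.2 and 40.0 against 17.2, 19.3 and 26.9. Ctnnal1, a relative of alpha-catenin, was at 67.0, 94.9 and 96.8 against 33.2, 13.5 and 21.1 and had the largest ratio of the members, 3.82-fold, close to the limit of the rule. Dlg5 and Kirrel, a scaffold and an adhesion receptor, averaged 64.8 and 26.7 CPM with PyMT-N and 48.5 and 47.4 with PyMT-M cells. On the junction list, 47 of 55 other tested genes rose and 2 fell with PyMT-N cells, against 19 and 5 with PyMT-M cells. With pan-leukocyte scaling these became 50 and 1, and 25 and 2. Cdh1, Cldn3, Cldn4 and Cldn7 are on this list and among the epithelial markers, and Cdh1 averaged 232 CPM with PyMT-N and 0.667 with PyMT-M cells. The part of epithelial cells in the count was not tested.

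Actin and membrane skeleton genes were one of the 2 largest groups, with 12 members. Rai14, an actin-binding ankyrin repeat protein, had 163, 253 and 217 CPM with PyMT-N cells, 119, 111 and 102 with PyMT-M cells and 0.371, 0.314 and 0.609 alone. Nckap1, a subunit of the WAVE complex that drives lamellipodia, had 100.2, 158 and 155 CPM with PyMT-N cells, 77.2, 66.2 and 77.7 with PyMT-M cells and 0.371, 2.20 and 0 alone. Aif1l, a relative of the macrophage protein Aif1, had 90.1, 83.0 and 73.6 CPM with PyMT-N cells, 34.0, 43.6 and 33.3 with PyMT-M cells and no count in any library alone. These 3, with the ankyrin Ank3, the Cdc42 exchange factor Dock9 and the Ras effector Rin1, were higher in every PyMT-N than in any PyMT-M library. Map1b, a microtubule-associated protein, went the other way, at 62.2, 71.5 and 81.1 CPM with PyMT-M against 27.6, 40.5 and 32.9 with PyMT-N cells. The other 5 overlapped: Arhgap35, a GTPase-activating protein; Arpin, which restrains branched actin; Cdc42bpa, a myosin-regulating kinase; Arhgef17; and Epb41l1. Of 58 other tested actomyosin and stress fibre genes, 35 rose and 11 fell with PyMT-N, and 25 rose and 19 fell with PyMT-M cells. With pan-leukocyte scaling these became 43 and 1, and 42 and 0.

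Of 7 members among matrix proteins and their modifying enzymes, 4 were higher in every PyMT-M library, 1 in every PyMT-N library and 2 overlapped. Of all tested genes, 33.9% were higher in every PyMT-M library and 20.9% in every PyMT-N library. The ER prolyl isomerase Fkbp9 had 54.3, 89.2 and 53.0 CPM with PyMT-N cells, 124, 174 and 119.6 with PyMT-M cells and 1.48, 0.629 and 0 alone. Perlecan, Hspg2, the heparan sulphate proteoglycan of basement membranes, had 19.99, 21.7 and 19.7 CPM with PyMT-N cells, 42.5, 66.9 and 37.6 with PyMT-M cells and no count in any library alone. P4ha2, a collagen prolyl hydroxylase, had 20.8, 31.6 and 26.3 CPM with PyMT-N cells, 63.2, 53.6 and 66.7 with PyMT-M cells and 1.11, 0 and 0 alone. The lysyl hydroxylase Plod2, which prepares collagen for crosslinking, was the exception, with 57.7, 52.2 and 53.5 CPM with PyMT-N cells, 32.97, 38.3 and 39.8 with PyMT-M cells and no count in any library alone. The secreted protein Oaf varied most within a co-culture, by 54.9% of its mean with PyMT-N cells, where it had 23.1, 17.7 and 48.2 CPM. Efemp2, a fibulin needed for elastic fibres, averaged 29.0 and 35.4 CPM, and the matrix-associated receptor Mxra8 48.4 and 52.6. The basement membrane collagens Col4a1, Col4a2 and Col18a1 met the limits on values but were set aside by symbol. Of 39 other tested matrix-modifying enzymes, 22 rose and 3 fell with PyMT-N, and 23 rose and 2 fell with PyMT-M cells. These became, on pan-leukocyte scaling, 27 and 1, and 34 and 0. Efemp2 overlaps Mus81, and without a known strand setting its count is uncertain.

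Surface receptors and co-receptors gave 7 members. Ryk, an atypical Wnt receptor, had 48.1, 80.4 and 87.1 CPM with PyMT-N cells, 88.7, 96.8 and 108 with PyMT-M cells and 0.371, 0 and 0 alone. Fgfr1, a fibroblast growth factor receptor, had 55.5, 43.6 and 51.5 CPM with PyMT-N cells, 45.5, 65.7 and 63.3 with PyMT-M cells and 1.48, 0.314 and 0 alone, and its fitted log2 difference between the co-cultures was 0.01 ± 0.25 (SE). Tenm4, a teneurin adhesion receptor, had 24.2, 24.8 and 18.3 CPM with PyMT-N cells, 61.7, 66.4 and 62.1 with PyMT-M cells and no count in any library alone. The netrin receptors split: Neo1 was at 44.5, 86.7 and 79.1 CPM with PyMT-N and 20.2, 29.0 and 26.3 with PyMT-M cells, and Unc5b at 44.5, 53.9 and 46.4 and 52.4, 59.9 and 62.1. Neo1 was higher in every PyMT-N library, Tenm4 and Ryk in every PyMT-M library, and Unc5b overlapped. The proteoglycan co-receptor Sdc2 averaged 57.1 and 77.8 CPM and the tetraspanin Tspan9 94.3 and 73.5. Among 49 other tested receptor tyrosine kinases and ligands, 37 rose and 4 fell with PyMT-N, and 25 rose and 7 fell with PyMT-M cells. These became, on pan-leukocyte scaling, 40 and 0, and 31 and 0.

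Transcription and RNA-binding factors gave 10 members. The transcription factor Nfib had 122, 167 and 148 CPM with PyMT-N cells, 42.0, 43.6 and 76.8 with PyMT-M cells and 0, 0.314 and 0 alone. Sox9, a factor of stem and progenitor cells in many epithelia, had 71.5, 86.4 and 92.4 CPM with PyMT-N cells, 86.4, 117 and 147 with PyMT-M cells and 0.371, 0 and 0 alone. Rbfox2, a splicing regulator, had 36.0, 38.2 and 34.3 CPM with PyMT-N cells, 107, 125 and 149 with PyMT-M cells and 0.371, 0 and 0 alone. Nfib was higher in every PyMT-N library and Rbfox2 in every PyMT-M library, 3.50-fold on average, and Sox9 overlapped. Fosl1, an AP-1 subunit, was at 36.3, 37.1 and 31.4 CPM with PyMT-N and 61.2, 59.9 and 55.7 with PyMT-M cells, and overlaps Ccdc85b, so its count is uncertain. Tbx15, a T-box factor, averaged 42.8 and 24.8 CPM. The ETS factor Etv1 averaged 30.6 and 20.1, and its relative Etv4 missed the 20 CPM limit with 24.8 and 19.6. The adaptor Apbb2, the RNA-binding proteins Samd4 and Spats2, and the apoptosis regulator Pawr completed the group, at 69.2, 59.6, 27.0 and 26.8 CPM with PyMT-N and 33.6, 35.3, 49.4 and 20.1 with PyMT-M cells.

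Metal reduction, transport and metabolism gave 7 members. Steap2, a membrane reductase of iron and copper, and its relative Steap1 are neighbours on chromosome 5, at chr5:5664829-5694578 and chr5:5736317-5749326, with a gap of 41738 bases. Steap2 had 117, 179.9 and 154 CPM with PyMT-N cells, 169, 150.4 and 149 with PyMT-M cells and 0, 0.314 and 0 alone. Steap1 had 24.2, 36.8 and 37.6 CPM with PyMT-N cells, 26.7, 32.5 and 29.4 with PyMT-M cells and no count in any library alone. Both overlapped between the co-cultures. Another reductase, Cyb561, was higher in every PyMT-N library, at 43.9, 64.7 and 47.1 CPM against 19.7, 17.9 and 27.8. The creatine transporter Slc6a8, at 29.6, 36.2 and 43.1 against 66.7, 103 and 72.2, and the neutral amino acid transporter Slc1a4, at 16.6, 22.8 and 20.8 against 47.7, 47.8 and 71.6, were higher in every PyMT-M library. The mitochondrial adenylate kinase Ak4 averaged 32.9 and 51.2 CPM and varied by 47.3% of its mean with PyMT-N cells, and the deoxycytidylate deaminase Dctd averaged 24.4 and 32.7.

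Ccl2, the chemokine that draws monocytes through Ccr2, had the highest level per length of all members, 121 CPM per kb with PyMT-N and 269.9 with PyMT-M cells. Its CPM values were 194, 113 and 106 CPM with PyMT-N cells, 317, 246 and 358 with PyMT-M cells and 1.48, 1.26 and 0 alone, and every PyMT-M library was above every PyMT-N library. Ccl2 lies within the predicted gene Gm17268 on the other strand, so its count is uncertain without the strand setting. The summed monocyte and macrophage markers, whose cells also make Ccl2, were lower in both co-cultures than alone, mostly through Lyz2. Other markers on that list differed in direction. Csf1r averaged 282 CPM alone, 135 with PyMT-N and 55.0 with PyMT-M cells, and Fcgr1 1.70, 163 and 52.9. The Ccl2 relative Ccl7 had a mean of 35.9 CPM with PyMT-N and 150.4 with PyMT-M cells and was left out at 4.19-fold. Cpe, a carboxypeptidase that matures peptide hormones, had 108, 155 and 123 CPM with PyMT-N cells, 44.0, 42.7 and 41.0 with PyMT-M cells and 0.371, 0.314 and 0 alone. Sh3bgrl2, a small protein of the SH3-binding glutamate-rich family, had 95.2, 129 and 101 CPM with PyMT-N cells, 36.5, 37.8 and 23.9 with PyMT-M cells and 0.371, 0.314 and 0 alone. Cpe, Sh3bgrl2 and the kinase Mast4 were higher in every PyMT-N library, while Ccl2, Npdc1 and Fam149a were higher in every PyMT-M library. The calcium sensor Ncs1 averaged 59.4 and 57.9 CPM, the mitochondrial anchor Akap1 53.7 and 75.3, and the endocytic adaptor Epn2 50.8 and 58.7. The phosphatase Dusp18, the interferon-inducible Ifi213 and Lhfp lay between 22.6 and 28.8 CPM in both. Cdc42bpa, Npdc1 and Mast4 also share bases with another coding gene (Coq8a, Entpd2 and Cd180).

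**Figure D3:**
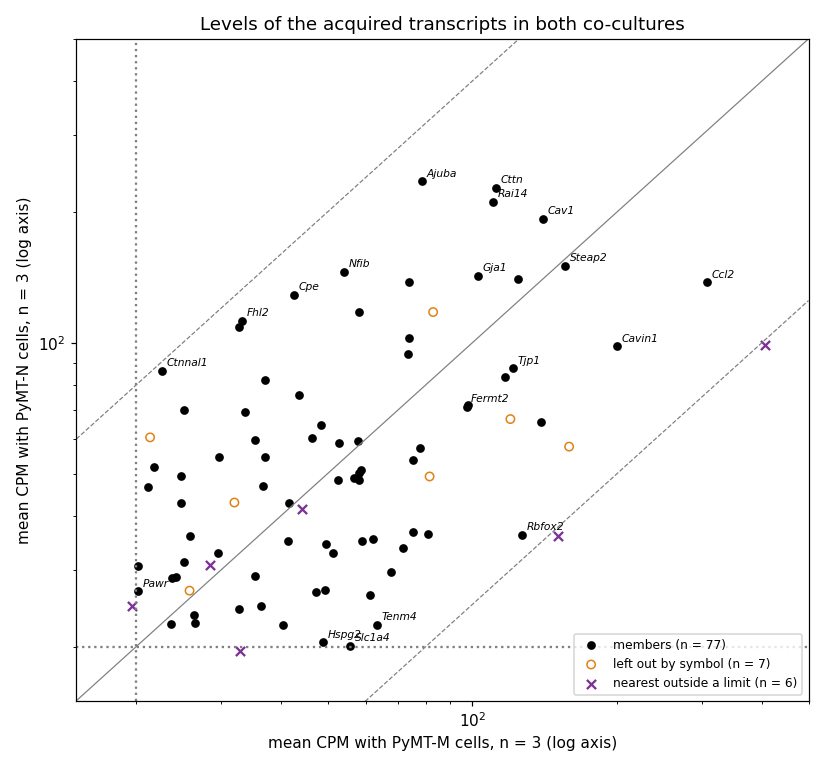
Mean CPM with PyMT-N cells (vertical) against mean CPM with PyMT-M cells (horizontal), n = 3 each, both axes logarithmic. Dotted lines mark 20 CPM, dashed lines 4-fold and the solid line equality, and the 77 members lie on both sides of it, from Ctnnal1 at 3.82-fold higher with PyMT-N to Rbfox2 at 3.50-fold higher with PyMT-M cells.

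Levels with PyMT-N cells were then set against levels with PyMT-M cells. Mean CPM was higher with PyMT-N cells for 39 and with PyMT-M cells for 38. The ratio was within 2-fold for 52, over 2-fold toward PyMT-N for 13 and toward PyMT-M for 12. The choice bounds this difference to 4-fold, so it is given as a description. All 3 PyMT-N libraries were above all 3 PyMT-M libraries in CPM for 22 members, where 20.9% of the 12012 tested genes were, and the reverse held for 19, where 33.9% were. The edgeR quasi-likelihood test called 24 members higher with PyMT-N cells, beside 19.1% of all genes, and 12 lower, beside 15.5%. That split depended on scaling. By library totals it was 19 higher and 17 lower, beside 15.3% and 22.5% of all genes. Scaled to pan-leukocyte genes it was 14 higher and 21 lower, beside 11.6% and 29.8%. The shares of all genes thus moved in the same direction. Without PyMT-N replicate 1 the lower count was 6, beside 11.15% of all genes, and without PyMT-M replicate 2 it was 7, beside 11.98%. The median log2 difference was 0.25 for the members and -0.02 for all tested genes, and scaling by library totals moved the median of all genes by -0.21.

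Of 8 focal adhesion members 3 were called higher with PyMT-N cells and none lower, and of 12 actin and membrane skeleton members 5 were higher and 1 lower. Of 7 matrix members 1 was called higher and 4 lower. The shares of all tested genes are 19.1% higher and 15.5% lower. Scaled to pan-leukocyte genes the counts were 3 and 0 for focal adhesion members, 2 and 1 for the actin group and 0 and 4 for the matrix group. With that scaling the shares of all tested genes were 11.6% higher and 29.8% lower. Differences between roles were not tested. The summed level of the matrix group was 239.6, 298 and 283 CPM with PyMT-N and 412, 510.3 and 404 with PyMT-M cells. For focal adhesion members it was 705, 962 and 864 and 487, 551 and 489, with no overlap. For the caveola it was 332, 487 and 467 and 458, 550.0 and 357, overlapping. The roles were assigned after the members were known, and no group was tested as a set. Of the mesenchymal markers other than Vim, 11 had a higher mean with PyMT-M cells and 10 with PyMT-N cells: Sparc averaged 69.4 CPM in PyMT-N and 435 in PyMT-M co-culture, and Fn1 898 and 1.44. Their part in the matrix group was not tested.

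**Figure D4:**
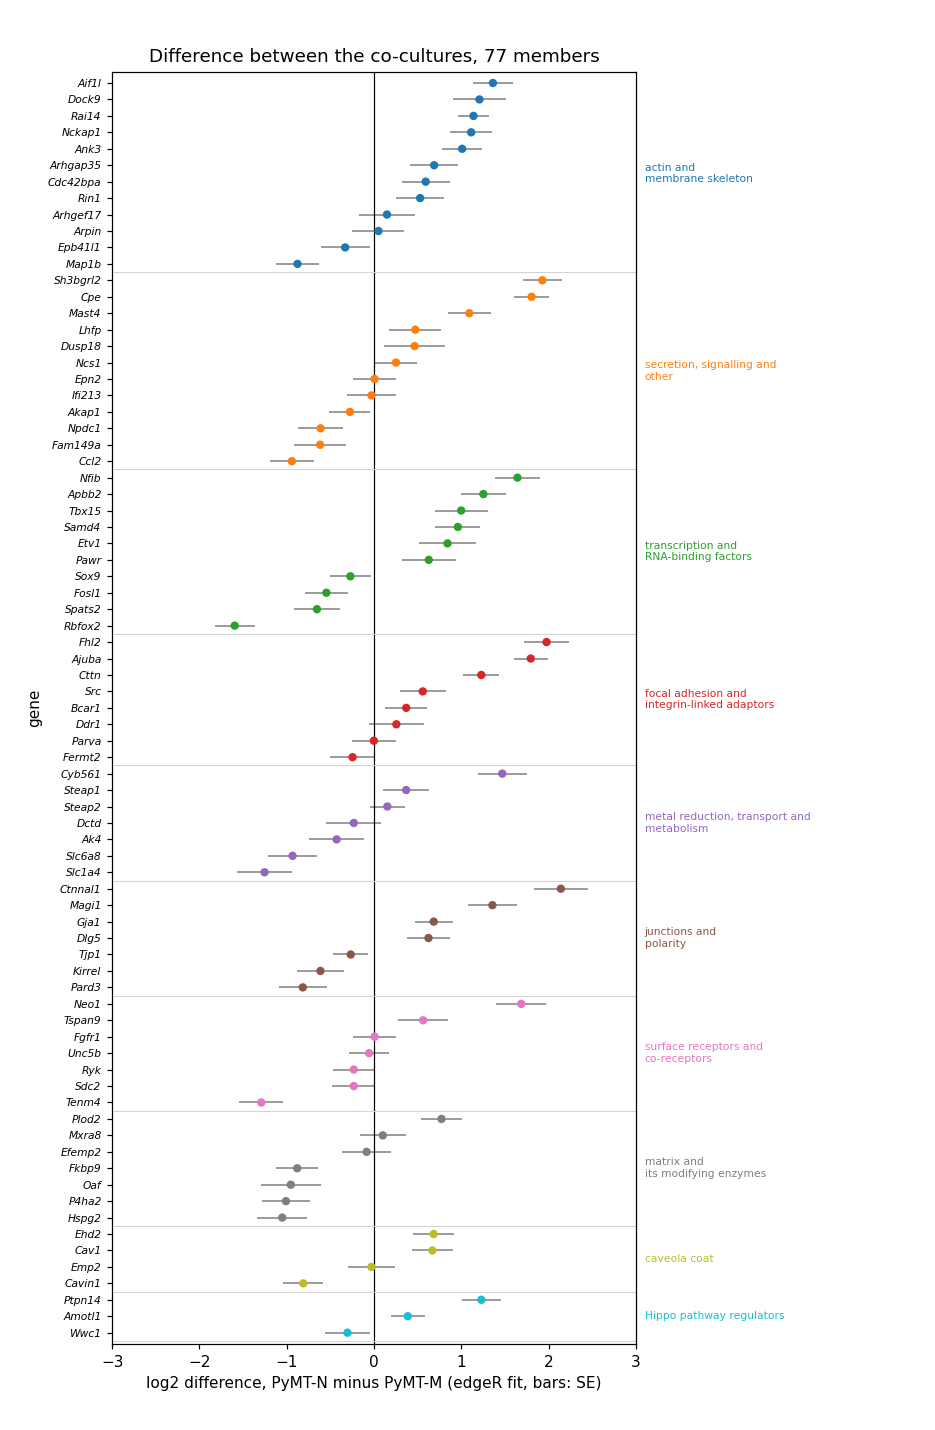
Fitted log2 difference between the co-cultures (horizontal, PyMT-N minus PyMT-M, edgeR) for each of the 77 members (rows, grouped and coloured by role), with SE as bars. Points to the right are higher with PyMT-N cells: Ctnnal1, at 2.14, is farthest right and Rbfox2, at -1.60, farthest left, and 4 of the 7 matrix genes lie beyond -0.8.

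Several members have a paralogue that leukocytes use in the same role, and 11 such pairs were picked from general knowledge after the members were known. Fermt3, the kindlin of blood cells, had 108, 117 and 96.3 CPM alone, 42.0, 24.2 and 44.6 with PyMT-N and 24.97, 23.9 and 16.2 with PyMT-M cells. It fell against alone by an edgeR log2 difference of -1.82 ± 0.26 (SE; adjusted p = 2.91e-05, edgeR quasi-likelihood test) with PyMT-N cells and -2.80 ± 0.27 (SE; adjusted p = 1.26e-06, edgeR quasi-likelihood test) with PyMT-M cells, and kept that direction when scaled to pan-leukocyte genes, a list that holds it. In group means per kb of exon, the measure used for all pairs here, Fermt2 made up 0% alone, 68.2% with PyMT-N and 83.3% with PyMT-M cells of the pair. A share of a pair within a library does not depend on how libraries are scaled.

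Parva made up 0% alone, 37.4% with PyMT-N and 39.6% with PyMT-M cells of its pair with Parvg, the parvin of blood cells, which had 57.1, 61.6 and 93.8 CPM alone, 33.2, 19.4 and 22.1 with PyMT-N and 26.0, 26.9 and 26.0 with PyMT-M cells. Cttn against Hcls1, the cortactin of blood cells, made up 0.171% alone, 36.8% with PyMT-N and 36.5% with PyMT-M cells, so the co-cultures overlapped in share although Cttn was higher in every PyMT-N library. Hcls1 had 211, 249 and 353 CPM alone, 254, 227 and 224 with PyMT-N and 120.1, 133 and 98.5 with PyMT-M cells. Nckap1 against Nckap1l, the WAVE subunit of blood cells, made up 0.305% alone, 48.8% with PyMT-N and 33.2% with PyMT-M cells. Aif1l stood at 0% alone, 99.1% with PyMT-N and 78.8% with PyMT-M cells beside Aif1. Aif1 itself was low, with 3.71, 1.89 and 24.4 CPM alone, the highest in the shallowest library. It was at or under 5.81 CPM in every co-culture library. Src stayed the smaller partner beside the myeloid kinase Fgr, at 0.112% alone, 13.1% with PyMT-N and 17.1% with PyMT-M cells.

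Dock9 passed Dock10, at 2.02% alone, 77.7% with PyMT-N and 67.5% with PyMT-M cells, but not Dock11, at 0.209% alone, 34.0% with PyMT-N and 17.1% with PyMT-M cells. Rin1 against Rin3 reached 0.136% alone, 34.6% with PyMT-N and 25.4% with PyMT-M cells. Sh3bgrl2 against Sh3bgrl3 reached 0.0709% alone, 30.1% with PyMT-N and 15.3% with PyMT-M cells, and Ehd2 against Ehd1, which is widely expressed, 0.128% alone, 14.8% with PyMT-N and 25.2% with PyMT-M cells. In every pair the share was higher in co-culture than alone, which the choice of members fixes, since they were selected to be low alone and higher with both PyMT cells. The leukocyte partner Rin3 differed from alone by -2.27 ± 0.21 (SE; adjusted p = 4.37e-07, edgeR quasi-likelihood test) with PyMT-N cells. Scaled to pan-leukocyte genes the sign turned for Nckap1l, Sh3bgrl3 and Ehd1 with PyMT-M cells and for Fgr, Hcls1 and Sh3bgrl3 with PyMT-N cells, where Hcls1 and Sh3bgrl3 had not passed the test. Under that scaling 8 more of the paralogue differences from alone lost their call and 1 gained one. The shares of the co-cultures did not overlap between PyMT-N and PyMT-M libraries for the pairs of Aif1l, Dock9 with Dock11, Sh3bgrl2, Rin1 and Ehd2, of which Ehd2 alone was higher with PyMT-M cells.

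**Figure D5:**
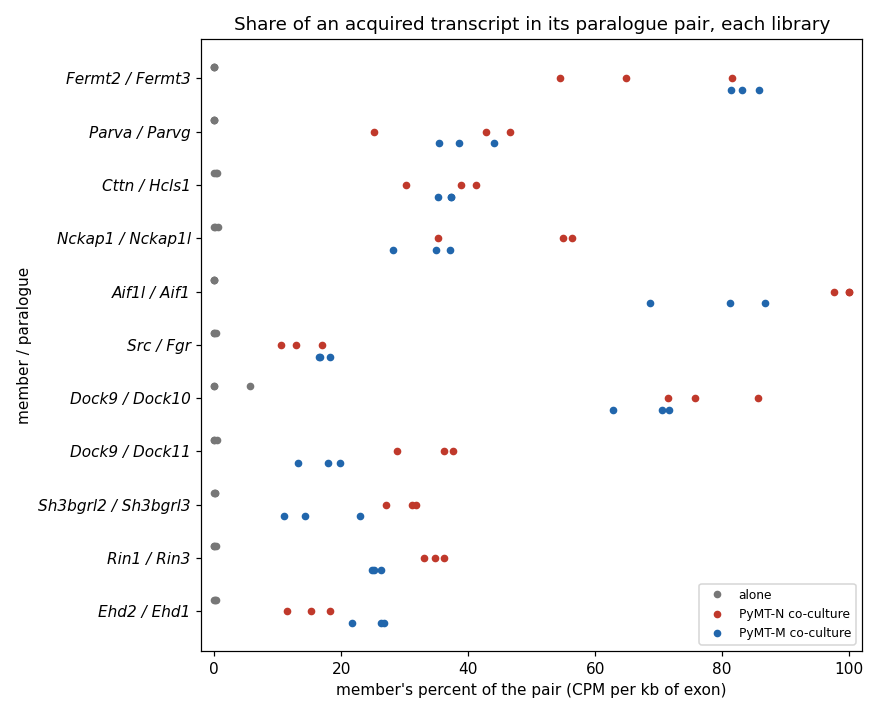
Share of the member in each of 11 member and paralogue pairs (rows), in percent of the summed CPM per kb of exon (horizontal), one point per library. Alone libraries (grey) lie near 0, the farthest being a library in the Dock9 and Dock10 pair, and co-culture libraries (red, PyMT-N; blue, PyMT-M) lie to their right, an order that the selection of the members fixes.

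The choice was repeated with one replicate number left out of all groups, and the libraries not used were then read. Without replicate 1, 94 genes were chosen, 71 of them members, and 47 met every limit in the replicate 1 libraries. Without replicate 2 there were 98, 70 of them members, and 54 met every limit. Without replicate 3 there were 78, 62 of them members, and 52 did. In all 3 cases every gene chosen was higher in both co-culture libraries left out than in the alone library left out. The lowest of those values was 5.63 CPM with PyMT-N and 10.5 with PyMT-M cells, and the highest alone was 9.14 CPM.

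Slc1a4 and Pawr were just inside 20 CPM, at 20.1 with PyMT-N and 20.1 with PyMT-M cells, and Etv4 and Ak1 just outside, at 19.6 and 19.5. Slc6a8 and Ccl2 were just inside 1 CPM alone, at 0.936 and 0.913, and Sh3d19 and Mt1 just outside, at 1.05 and 1.08. Dusp9 and Ccl7 were just beyond 4-fold, at 4.12 and 4.19. One long non-coding RNA, Pvt1, met all limits on values, with a mean of 22.3 CPM with PyMT-N and 78.1 with PyMT-M cells.

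The median exon length was 5191 bases for the members and 5110 for the 5531 protein-coding genes at 20 CPM or more in both co-cultures. It was 3680 bases for 144 genes under 1 CPM alone, at 20 CPM or more with PyMT-N cells and over 4-fold above their level with PyMT-M cells, whatever that level was. It was 4742 bases for the 78 genes chosen in the same way for PyMT-M cells. Members lay on 19 chromosomes, with 10 on chromosome 11 and 8 on chromosome 7, and Steap2 and Steap1 were the pair next to each other. The median coefficient of variation was 21.1% with PyMT-N and 17.9% with PyMT-M cells, against 13.7% and 13.6% for those 5531 genes.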

How the data were processed

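RNA of neutrophils from wild type bone marrow was measured in 9 libraries, 3 alone and 3 with each kind of PyMT cell, made per the labels from 150 pg of RNA with a kit for single-cell amounts. The authors deposited whole-number counts per Ensembl gene, and STAR and the build GRCm38 (mm10) are named in the submitters' processing notes. No counting tool, strand setting or annotation release is given in the sources used here. Symbols, exon lengths and coding status came from GENCODE M21, and 37 identifiers had no entry there.

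CPM used library totals. Differences came from edgeR 4.0.16 (R 4.3.3), in one quasi-likelihood model of all 9 libraries with trimmed-mean (TMM) size factors. The expression filter used a minimum count of 10 and a minimum total of 15, and p-values were adjusted by Benjamini-Hochberg over 12012 genes, with calls at 0.05. SE is the log2 difference divided by the square root of its F value. limma 3.58.1 (voom), DESeq2 1.42.0, other scalings, filters and left-out libraries were alternatives. The scripts were tested on simulated data. A further paralogue pair is not reported here. Counts per library limit precision, and a count of 0 was replaced by 3 counts over the group for lower bounds.

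Members, roles and lists were chosen with earlier results of these data known. The naming rule took the 12 members highest per length, the 4 with the highest and 4 with the lowest ratio between co-cultures, the 2 genes nearest each side of a limit, up to 3 members of each role list, the 5 highest at 0 alone and the 3 most variable within a co-culture; other members are given by role and were named after their values were seen.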

Additional observations from a re-analysis of the deposited data

How the results depend on the processing

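All 77 members were called higher with PyMT-N and with PyMT-M cells than alone under every alternative run. Nothing is read from this, since the same values chose the members. The share of all genes called higher ran from 16.7% to 56.9% with PyMT-N and from 15.7% to 64.9% with PyMT-M cells. The selection rule gave 127 genes with an alone limit of 2 CPM, 177 with a co-culture limit of 10 CPM, 25 with 50 CPM and 175 on CPM relative to pan-leukocyte genes, 76 of them members, and 75 to 101 when a library was left out. Of the members, 14 were higher and 21 lower with PyMT-N than with PyMT-M cells when scaled to pan-leukocyte genes. Of all tested genes 11.6% were higher and 29.8% lower there. Leaving out each library gave 19 to 29 higher and 6 to 16 lower, with 6 without PyMT-N replicate 1 and 7 without PyMT-M replicate 2. The shares of all genes there were 15.4% to 23.9% higher and 10.5% to 20.8% lower. Summed member CPM with PyMT-N cells was 9079 relative to pan-leukocyte genes, and with PyMT-M cells 10096 relative to those genes and 4102 by TMM-normalised library size. Leaving out a library gave sums of 4858 to 5579 with PyMT-N, 4691 to 4896 with PyMT-M and 17.8 to 28.3 alone.

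Scaled to pan-leukocyte genes, an alternative for the paralogues added after the data were seen, log2 differences from alone reversed to 0.12 for Nckap1l, 0.24 for Sh3bgrl3 and 0.091 for Ehd1 with PyMT-M cells, and to 0.51 for Fgr with PyMT-N cells. Hcls1 and Sh3bgrl3, not called with PyMT-N cells, moved to 0.60 and 0.46 there. A further 8 paralogue differences from alone lost their call under that scaling, and 1 gained one. That scaling moved the median log2 difference of all genes by 1.08 with PyMT-N and 1.51 with PyMT-M cells against alone. Fgr also lost its call with PyMT-N cells by library totals, at -0.27. The cause was not tested. With the replicate block, 77 and 77 members were higher than alone, beside 28.4% of all genes with PyMT-N and 27.3% with PyMT-M cells. Nothing is read from those 2 counts, since the selection used the same values. With that block 23 members were higher with PyMT-N than with PyMT-M cells, beside 18.55% of all genes, and 10 lower, beside 14.48%. Column names carry the same number for same-numbered libraries of every group, and the labels do not say what it stands for. Deviations of same-numbered libraries had correlations from -0.0781 to 0.0285. At this depth such correlations cannot exclude a shared source, and the main model did not pair the libraries. At 1.64 to 4.52 counts per CPM, levels of single members alone rest on at most 8 counts over 3 libraries. Groups of 3 allow no test for a library that stands apart.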
